A study of Mus musculus with 22 samples.

Results

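The CCAAT/enhancer-binding proteins (C/EBP) are transcription factors of the basic leucine zipper (bZIP) class, which bind DNA as pairs. Their transcripts were followed in mouse bone marrow-derived macrophages (BMDM), cells that differentiate in the dish from marrow progenitors. The 6 genes were chosen by name, namely Cebpa, Cebpb, Cebpd, Cebpe, Cebpg and Cebpz, and each was read from all array probes whose RefSeq accession maps to it. Each gene had 1 probe, so that 6 of the 22347 genes tested are described here. All 6 probes were well above background on all 22 arrays. Cebpz is included for its name. It encodes a CCAAT-binding protein outside the bZIP class.

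C/EBPα directs the differentiation of myeloid cells and restrains their proliferation. C/EBPβ and C/EBPδ are raised by inflammatory stimuli in macrophages and act on the promoters of cytokine and acute-phase genes, and C/EBPε is required late in granulocyte maturation. C/EBPγ lacks a strong activation domain and pairs with other bZIP proteins.

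The BMDM came from mice labelled as C57BL/6, male and 10 to 14 weeks old, with C57BL/6J as the background of the knockouts in the methods, and were differentiated for 9 days with 10 ng/ml of the growth factor M-CSF. They were wild type (wt), deficient in the protein kinase MK2 (MK2-/-), or deficient in MK2 and the related kinase MK3 (MK2/3-/-). Cells of each genotype were kept for 360 min in medium alone or with 100 ng/ml lipopolysaccharide (LPS), the bacterial product that activates Toll-like receptor signalling in macrophages. There were 4 medium and 3 LPS arrays for wt, 4 and 4 for MK2-/-, and 3 and 4 for MK2/3-/- BMDM. All arrays of a genotype lay on a slide of their own, so that in a direct comparison of genotypes the slide and the genotype cannot be told apart.

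Transcript levels were measured on Agilent 1-colour arrays, and each value given as a level is a quantile-normalised log2 signal. Levels of different probes on such arrays are not comparable, so each gene is compared with itself only. Between 61.4% and 78.1% of probes were well above background on an array. Mapkapk2, which encodes MK2, was lower than in wt by a log2 difference of -3.28 in MK2-/- and -3.87 in MK2/3-/- BMDM under LPS, although its probe stayed above background. Mapkapk3, which encodes MK3, was lower in MK2/3-/- than in MK2-/- BMDM by -4.35 under LPS and -1.73 in medium. Of the macrophage markers, 5 of 6 were on the array, and Adgre1 and Csf1r ranged from 15.56 to 16.8 and from 17.16 to 18.5. Some markers of other cells were also above background. Of the T cell genes, Cd3e ranged from 9.71 to 12.25 and Cd8a from 2.01 to 7.26, while Cd3g was above background on 1 array. Of the fibroblast genes, Col1a2 ranged from 8.34 to 16.08, Col1a1 from 4.89 to 14.99 and Dcn from 2.46 to 9.03. Of 8 granulocyte genes, S100a8, S100a9, Camp, Ltf and Elane were above background on 22 arrays, Mpo on 21, Ngp on 19 and Retnlg on 1. The basophil and mast cell genes Mcpt8, Cpa3 and Ms4a2 were above background on 13, 10 and 0 arrays. The Y-linked transcripts Ddx3y and Eif2s3y were at most 3.31 on 2 arrays, MK2-/- LPS replicate 3 and MK2-/- medium replicate 3, and at least 10.09 on all others, which goes against the label male. In wt medium replicate 4 inflammatory transcripts were raised, with Il6 at 13.36 against 8.52, 6.41 and 10.02 on the other wt medium arrays. On the medium arrays of MK2-/- and MK2/3-/- BMDM Il6 ran from 4.88 to 6.36 and from 5.16 to 6.55. In wt medium replicate 4 no C/EBP gene was the highest, and each lay within or at the edge of the range of the other wt medium arrays. Where they were computed, values without wt medium replicate 4 or the 2 arrays of low Y-linked signal are given beside the results they touch.

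Promoter sequences, from 250 bases before to 50 bases after the start of the gene, were taken from RefSeq on GRCm38.p6 for Cebpa, Cebpb and Cebpg, the 3 of 6 genes with an entry. The 250 upstream bases of Cebpa and Cebpb are shown because these genes moved furthest down and up in response to LPS among the 3, at chr7:35119043-35119292 and chr2:167688665-167688914, both on the plus strand. Capitals mark motif matches.
Cebpa: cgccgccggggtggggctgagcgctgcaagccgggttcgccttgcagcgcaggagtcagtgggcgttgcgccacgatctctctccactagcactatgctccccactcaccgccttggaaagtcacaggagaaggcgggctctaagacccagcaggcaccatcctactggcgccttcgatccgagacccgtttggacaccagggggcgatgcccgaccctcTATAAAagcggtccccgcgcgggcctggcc
Cebpb: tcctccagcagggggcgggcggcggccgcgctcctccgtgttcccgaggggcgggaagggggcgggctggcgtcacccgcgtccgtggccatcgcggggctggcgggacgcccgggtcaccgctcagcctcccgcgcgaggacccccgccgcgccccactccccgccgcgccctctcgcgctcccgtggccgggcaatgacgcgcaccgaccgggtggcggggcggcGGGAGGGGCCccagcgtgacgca

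The windows were searched on both strands for 5 motifs. The TATA box TATAAA, held by 13.6% of the 32851 promoters in the table, began at -30 in Cebpa and at 22 in Cebpb, after the start site and outside the bases shown. The NF-kappaB-like motif, GGGA and CC with 4 bases between them, held by 20.7%, began at -23 in Cebpb and at -238 in Cebpg and had no match in Cebpa. The C/EBP palindrome TTGCGCAA (0.183%), the cyclic AMP response element TGACGTCA (1.79%) and the STAT motif TTCCNGGAA (1.15%) had no match in these 3 windows. A match is a description of the letters and no evidence of binding.

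To see how LPS acts on the family, LPS-treated and medium-treated BMDM of the same genotype, which shared a slide, were compared with limma over all 22347 genes. In wt BMDM LPS lowered Cebpa 36.3-fold, raised Cebpd 7.31-fold and Cebpb 4.52-fold, and lowered Cebpz 2.55-fold and Cebpe 1.92-fold, at adjusted p-values below the threshold of 0.05. Thus 5 of 6 members were called, compared with 42.2% of all genes tested. In MK2-/- BMDM the same 5 members were called in the same directions, against a background of 44.7%. In MK2/3-/- BMDM 3 of 6 were called, Cebpa, Cebpz and Cebpg, all lower, against 48.3%. The count in MK2/3-/- BMDM is thus close to the share of all genes. Medium and LPS arrays did not overlap for 5 members in wt, 4 in MK2-/- and 3 in MK2/3-/- BMDM, and for 48.8%, 42.1% and 50.3% of all genes. Without wt LPS replicate 2 the count in wt was 3. Without the 2 arrays of low Y-linked signal 5, 4 and 4 members were called in wt, MK2-/- and MK2/3-/- BMDM. A bulk array cannot tell fewer expressing cells from less transcript per cell.

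**Figure D1:**
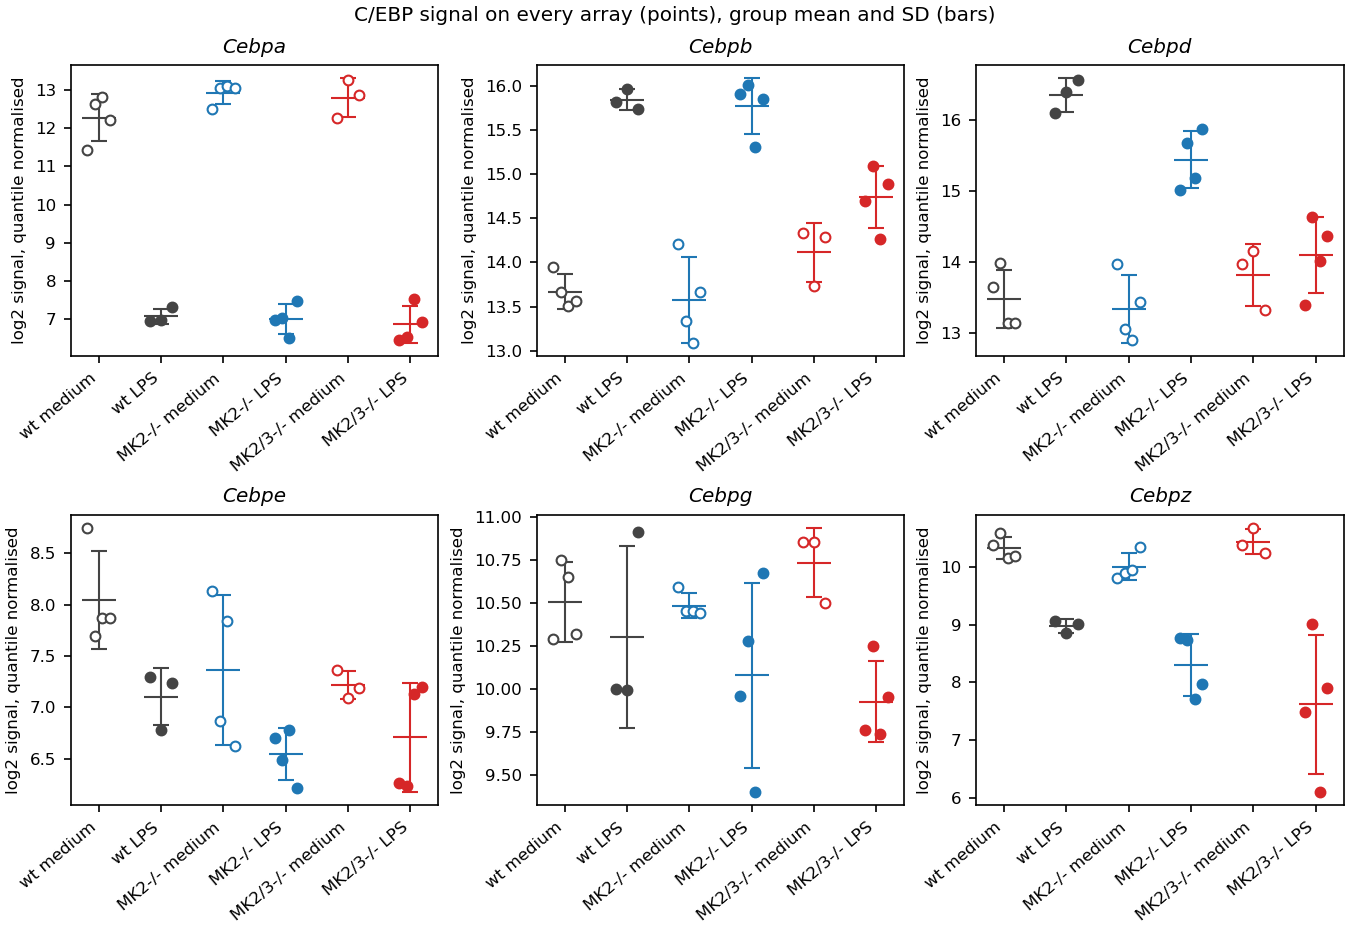
Quantile-normalised log2 signal of the 6 C/EBP genes on each of the 22 arrays (open points, medium; filled points, LPS), with group mean and SD. The medium and LPS arrays of Cebpa lie far apart in all 3 genotypes, whereas those of Cebpd lie apart in wt and MK2-/- BMDM and overlap in MK2/3-/- BMDM.

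Cebpa, the myeloid differentiation factor, showed the largest change. In medium its level was 11.42, 12.63, 12.8 and 12.21 on the wt arrays, 12.49, 13.05, 13.11 and 13.05 on the MK2-/- arrays, and 12.25, 13.25 and 12.87 on the MK2/3-/- arrays. Under LPS it was 6.96, 6.98 and 7.31 in wt, 6.99, 7.03, 6.52 and 7.49 in MK2-/-, and 6.46, 6.55, 7.52 and 6.94 in MK2/3-/- BMDM. Every LPS array lay far below every medium array, whatever the genotype, and the genotypes overlapped within each treatment.

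The log2 difference of Cebpa between LPS and medium was -5.18 ± 0.33 (SE; limma adjusted p 1.03e-09) in wt, -5.92 ± 0.31 (4.58e-11) in MK2-/- and -5.93 ± 0.33 (1.1e-10) in MK2/3-/- BMDM. From the lowest change upwards it ranked 24th, 28th and 42nd of 22347 genes. In folds, Cebpa was 36.3, 60.5 and 60.8 times lower. The response did not pass the test of a difference from wt in either knockout (adjusted p 0.756 and 0.616), and the 95% intervals of those differences ran from -1.68 to 0.21 in MK2-/- and from -1.72 to 0.24 in MK2/3-/- BMDM. The log2 of the summed signal of the 5 macrophage markers moved in the same direction. It went from between 18.91 and 19.38 in medium to between 17.79 and 18.33 under LPS. Of these markers, Csf1r, Lyz2 and Itgam are also on the list of C/EBPα or C/EBPε targets below. The part of this sum in the fall of Cebpa was not tested.

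**Figure D2:**
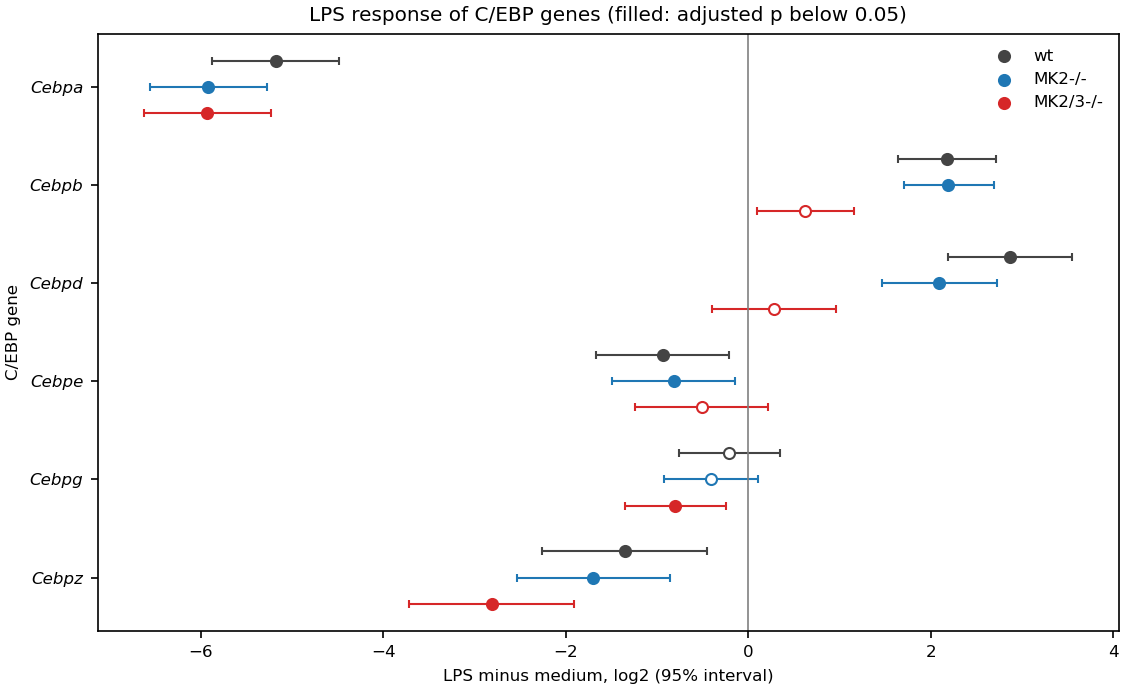
Log2 difference between LPS and medium of each C/EBP gene in wt, MK2-/- and MK2/3-/- BMDM, with 95% intervals from limma; filled points have an adjusted p below 0.05. Cebpb and Cebpd rose in wt and MK2-/- BMDM, while in MK2/3-/- BMDM their differences of 0.62 and 0.28 did not pass the threshold.

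Cebpd, one of the inflammatory members, had medium levels of 13.65, 13.99, 13.15 and 13.15 in wt, 13.98, 13.06, 12.9 and 13.44 in MK2-/-, and 13.98, 14.16 and 13.33 in MK2/3-/- BMDM. Under LPS the wt arrays were at 16.1, 16.4 and 16.56, the MK2-/- arrays at 15.02, 15.68, 15.19 and 15.87, and the MK2/3-/- arrays at 13.4, 14.64, 14.01 and 14.37. The LPS arrays of the 3 genotypes did not overlap, with wt highest and MK2/3-/- lowest, and 2 of 4 MK2/3-/- LPS arrays lay within the range of their medium arrays.

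The LPS response of Cebpd was 2.87 ± 0.33 (SE; limma adjusted p 1.01e-06) in wt and 2.09 ± 0.30 (1.05e-05) in MK2-/- BMDM. The MK2/3-/- value was 0.28 ± 0.33 (adjusted p 0.52), with a 95% interval from -0.4 to 0.96. When arrays were scaled to their 75th percentile in place of quantile normalisation, this last value was 1.08 (adjusted p 0.0142). It was 0.79 relative to the median of all genes, which was 0.29 under this scaling.

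Cebpb, the other inflammatory member, had medium levels of 13.95, 13.66, 13.51 and 13.56 in wt, 14.21, 13.34, 13.09 and 13.66 in MK2-/-, and 14.33, 13.73 and 14.29 in MK2/3-/- BMDM. Under LPS it was at 15.82, 15.97 and 15.74 in wt, 15.91, 16.01, 15.31 and 15.85 in MK2-/-, and 14.7, 15.09, 14.27 and 14.89 in MK2/3-/- BMDM. The wt and MK2-/- LPS arrays overlapped and lay above all other arrays, whereas 1 MK2/3-/- LPS array fell within the range of its medium arrays.

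The LPS response of Cebpb was 2.18 ± 0.26 (SE; limma adjusted p 1.52e-06) in wt, 2.19 ± 0.24 (2.79e-07) in MK2-/- and 0.62 ± 0.26 (0.0515) in MK2/3-/- BMDM. The last value lay at the threshold and was below it under 8 of 13 alternatives, among them the deposited value table (0.74, adjusted p 0.0213) and the 75th percentile scaling (1.5, adjusted p 0.000128, or 1.21 relative to all genes). Over the 13 alternatives its adjusted p ranged from 0.000128 to 0.126. Its 95% interval ran from 0.09 to 1.16.

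Cebpe, the granulocyte factor, was lower under LPS by -0.94 ± 0.35 (SE; limma adjusted p 0.0364) in wt and -0.82 ± 0.32 (0.0449) in MK2-/- BMDM, and by -0.51 ± 0.35 (0.253) in MK2/3-/- BMDM, which did not pass. Its medium levels ran from 7.69 to 8.75, from 6.62 to 8.13 and from 7.09 to 7.36 in the 3 genotypes, and its LPS levels from 6.78 to 7.29, from 6.21 to 6.78 and from 6.23 to 7.2. Medium and LPS arrays were apart in wt and overlapped in both knockouts. The calls did not hold throughout. The MK2-/- call was lost without the 2 arrays of low Y-linked signal (adjusted p 0.126) and without any one of 11 of the 22 arrays (adjusted p up to 0.176), among them MK2-/- LPS replicates 1, 2 and 4 and MK2-/- medium replicates 1 and 3, and the wt call without wt LPS replicate 2 or 3 or wt medium replicate 1 (adjusted p up to 0.145).

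Cebpg, the partner without a strong activation domain, had the smallest difference in wt. Its medium levels were between 10.29 and 10.75 in wt, 10.44 and 10.59 in MK2-/-, and 10.5 and 10.85 in MK2/3-/- BMDM, and its LPS levels between 9.99 and 10.91, 9.4 and 10.67, and 9.74 and 10.25. The groups overlapped in wt and MK2-/- BMDM and were apart in MK2/3-/- BMDM. Its LPS response was -0.21 ± 0.26 (SE; limma adjusted p 0.574), -0.41 ± 0.24 (0.193) and -0.80 ± 0.26 (0.016) in the 3 genotypes. The difference of the response between MK2/3-/- and wt, -0.60, was not called (adjusted p 0.609). Without MK2/3-/- medium replicate 1 or 2 the MK2/3-/- call was lost, with an adjusted p of up to 0.0588.

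Cebpz, which is not a bZIP protein, fell under LPS in all genotypes, by -1.35 ± 0.43 (SE; limma adjusted p 0.0166) in wt, -1.70 ± 0.40 (0.0016) in MK2-/- and -2.81 ± 0.43 (2.15e-05) in MK2/3-/- BMDM. Medium levels ran from 9.81 to 10.68 over all genotypes. LPS levels were 9.07, 8.85 and 9.01 in wt, 8.77, 8.74, 7.71 and 7.98 in MK2-/-, and 7.48, 9.01, 6.1 and 7.91 in MK2/3-/- BMDM. Every LPS array lay below every medium array, and the MK2/3-/- LPS arrays spread most, with an SD of 1.20. The wt call was lost without wt LPS replicate 2 (adjusted p 0.0561).

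To find where the knockouts differ, LPS-treated genotypes were then compared. Under LPS, Cebpd and Cebpb were lower in MK2/3-/- than in either other genotype. Relative to wt, Cebpd was 4.76-fold lower (log2 difference -2.25 ± 0.33, SE, limma adjusted p 0.000165) and Cebpb 2.15-fold lower (-1.10 ± 0.26, 0.0048). Cebpz was 2.55-fold lower (-1.35 ± 0.43, 0.0299), but its arrays overlapped. This made 3 of 6 members, all lower, against 23.7% of all genes called in either direction and 14% called lower. The arrays did not overlap for 2 members, Cebpb and Cebpd, and for 28.3% of all genes.

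The Cebpz call in this comparison was lost with array weights (-1.01, limma adjusted p 0.0517) and when only the compared groups were fitted (0.19), and without any one of wt LPS replicates 1, 2 or 3 or MK2/3-/- LPS replicates 1 or 3, with adjusted p-values between 0.0555 and 0.0862. Without MK2/3-/- LPS replicate 3, which had the lowest level, the difference was -0.84. The calls of Cebpd and Cebpb held without each array in turn. With the 2-sample t-test that the methods name, 2 of 6 members were below an unadjusted p of 0.05 and 0 after adjustment over all genes, with adjusted p 0.0625 for Cebpd and 0.0801 for Cebpb in that test across all genes.

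Relative to MK2-/- BMDM, Cebpd was lower in LPS-treated MK2/3-/- BMDM by -1.33 ± 0.30 (SE; limma adjusted p 0.00641), or 2.52-fold, and Cebpb by -1.03 ± 0.24 (0.0072), or 2.04-fold. These were 2 of 6 members, against 13.6% of all genes, and the arrays of both genes did not overlap, as for 13.9% of all genes. Between MK2-/- and wt BMDM under LPS 0 of 6 members were called by limma, against 11.6% of all genes, and 1 was below an unadjusted p of 0.05. The arrays did not overlap for 3 members, Cebpd, Cebpe and Cebpz, each lower in MK2-/-, and for 27.3% of all genes. For Cebpe the lowest wt array and the highest MK2-/- array were both at 6.78 after rounding (limma adjusted p 0.293). Without the 2 arrays of low Y-linked signal the counts of members called under LPS were 3 for MK2/3-/- against wt, 2 for MK2/3-/- against MK2-/- and 0 for MK2-/- against wt.

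The gene below the unadjusted threshold was Cebpd, at -0.92 ± 0.33 (SE; limma adjusted p 0.0707), with arrays that did not overlap. It was called with array weights (-1.10, adjusted p 0.0157) and with 75th percentile scaling (-1.09, 0.0319), and its adjusted p over the 13 alternatives ranged from 0.0157 to 0.126. For Cebpb the difference was -0.07, with a 95% interval from -0.61 to 0.46.

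**Figure D3:**
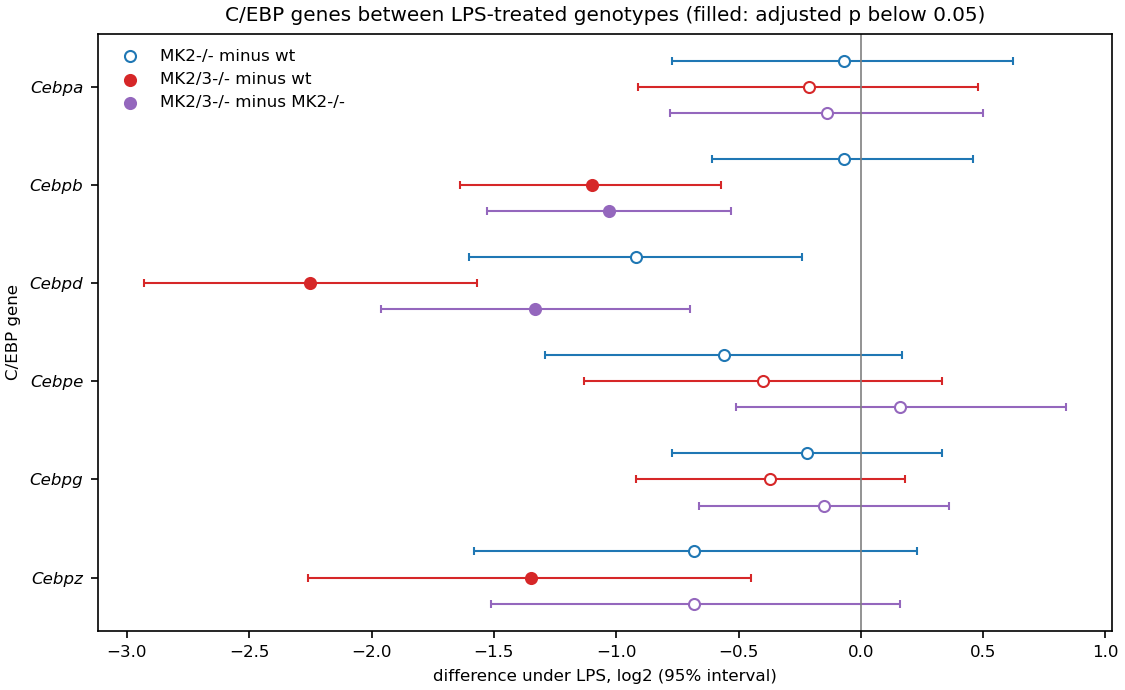
Log2 difference of each C/EBP gene between LPS-treated genotypes, with 95% intervals from limma; filled points have an adjusted p below 0.05. Cebpb lies near 0 between MK2-/- and wt and below 0 in both comparisons with MK2/3-/- BMDM, and Cebpd lies furthest below 0 between MK2/3-/- and wt.

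In medium 0 of 6 members were called between any genotypes by limma, where the shares of all genes were 8.88% for MK2-/- against wt, 2.02% for MK2/3-/- against wt and 2.83% for MK2/3-/- against MK2-/-. Below an unadjusted p of 0.05 there were 2, 1 and 1 members. They were Cebpa (0.66) and Cebpe (-0.68) for MK2-/- against wt, and Cebpe (-0.83) for MK2/3-/- against wt. For MK2/3-/- against MK2-/- it was Cebpb (0.54). Cebpb and Cebpd of medium-treated MK2/3-/- BMDM were above wt by 0.45 and 0.34 (adjusted p 0.385 and 0.645), in the direction opposite to their differences under LPS.

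Whether genotypes respond differently to LPS was tested by the interaction of genotype and treatment, in which an additive effect of the slide cancels. Cebpd responded less in MK2/3-/- than in wt BMDM by -2.59 ± 0.46 (SE; limma adjusted p 0.0228), with a 95% interval from -3.55 to -1.63. This was 1 of 6 members, against 0.689% of all genes. The value for Cebpb was -1.55 ± 0.36 (adjusted p 0.0511) and passed under 6 of 12 alternatives, over which its adjusted p ranged from 0.0241 to 0.187. The Cebpd call held without the 2 arrays of low Y-linked signal (-2.59, adjusted p 0.0369). It was lost with 75th percentile scaling (-2.45, adjusted p 0.0664), when only the compared groups were fitted (0.0551), and without MK2/3-/- medium replicate 1 or 2 (0.0671 and 0.0753).

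Between MK2/3-/- and MK2-/- BMDM the differences of the response were -1.81 ± 0.44 for Cebpd (SE; limma adjusted p 0.186) and -1.57 ± 0.35 for Cebpb (0.122), and 0 of 6 members were called against 0.0671% of all genes. Their unadjusted p-values from the same limma model were 0.000648 and 0.000248. Between MK2-/- and wt the response of 0 of 6 members and 0 of 22347 genes differed at the adjusted threshold, and 0 members and 1684 genes were below an unadjusted p of 0.05 (limma). The order of the Cebpd level was thus wt LPS, MK2-/- LPS and MK2/3-/- LPS, with no overlap between neighbours, followed by the 3 medium groups, which overlapped with each other and with MK2/3-/- LPS.

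Partners and regulators of the C/EBP proteins and genes known as their targets were read from 3 lists. Of 15 bZIP partners and regulators, 6 rose and 0 fell in wt BMDM, with a median of 0.69 against -0.04 for all genes, where 18.6% of all genes rose. The bZIP genes Batf and Batf2 rose by 5.63 and 4.87, Stat3, a transcription factor of cytokine receptors, by 2.76, and Spi1, which encodes the myeloid factor PU.1, by 1.38. Without wt medium replicate 4 these values were 6.11, 5.17, 2.88 and 1.37. In MK2-/- BMDM 9 rose and 0 fell, and in MK2/3-/- BMDM 7 rose and 1 fell, against 17.6% and 20.3% of all genes risen. The 1 that fell, Runx1 (named after its value was seen), was not called without MK2/3-/- LPS replicate 1 or MK2/3-/- medium replicate 3. In wt 1 fell without wt LPS replicate 1, wt medium replicate 3 or MK2-/- LPS replicate 3, and in MK2-/- BMDM 1 fell without MK2-/- LPS replicate 4. Batf, Stat3 and Spi1 rose by 6.29, 2.93 and 1.49 in MK2/3-/- BMDM, where Cebpb and Cebpd had differences of 0.62 and 0.28.

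Cop1 encodes a ubiquitin ligase that works with Tribbles proteins to degrade C/EBPα. Its mean level was 12.93 ± 0.11 (SD) in medium and 13.62 ± 0.19 under LPS in wt, 12.69 ± 0.12 and 13.97 ± 0.12 in MK2-/-, and 13.02 ± 0.21 and 14.68 ± 0.07 in MK2/3-/- BMDM. The LPS levels of the genotypes ran from 13.42 to 13.8, from 13.86 to 14.13 and from 14.58 to 14.73 and did not overlap. Its response to LPS was larger in MK2/3-/- than in wt BMDM by 0.97 ± 0.20 (SE; limma adjusted p 0.0351). The call was lost without 11 of the 22 arrays, one at a time, with an adjusted p of up to 0.102, and under 3 of 12 alternatives, namely 75th percentile scaling (0.0791), without the 2 arrays of low Y-linked signal (0.0509) and when only the compared groups were fitted (0.0859). It was the only list gene called in an interaction in the model with all arrays.

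Of 14 inflammatory genes known as C/EBPβ or C/EBPδ targets, 13 were tested, and 12 rose in wt BMDM, with a median of 6.39. Of all genes 18.6% rose, with a median of -0.04. The leading genes were Il6, the cytokine interleukin-6, by 8.11, Ptgs2, an enzyme of prostaglandin synthesis, by 7.13, Csf3, a granulocyte growth factor, by 7, and Il1b, the cytokine interleukin-1β, by 6.75. In MK2-/- BMDM 11 rose, with a median of 5.98, against 17.6% of all genes. In MK2/3-/- BMDM 8 rose, against 20.3% of all genes, with a median of 4.72, or 4.56 with genes at background set to their bound. Without wt medium replicate 4, the wt responses of Il6, Ptgs2 and Il1b were 9.37, 7.9 and 7.78, and the count was again 12. Csf3 was above background on no other wt medium array. Its fitted value of 7.75 without replicate 4 is thus a difference from background signal, and no bound was computed for it. Il6, Ptgs2 and Il1b rose by 12.06, 10.12 and 7.69 in MK2/3-/- BMDM. In medium, Il6 and Ptgs2 were lower in MK2-/- than in wt BMDM, by -3.90 and -3.12 (limma adjusted p 0.0122 and 0.0124). In MK2/3-/- BMDM their medium differences from wt, -3.63 and -2.76, did not pass (0.0521 and 0.0646). The wt means here include wt medium replicate 4, with Il6 at 13.36 and Ptgs2 at 12.19. On the other wt medium arrays Il6 ran from 6.41 to 10.02 and Ptgs2 from 7.2 to 10.65. These medium differences would thus be smaller without replicate 4, and they were not computed without it. Csf3 was above background on 1 of 4 wt medium arrays and on 0 medium arrays of the knockouts, and was at least 90.4-fold higher under LPS in MK2-/- and at least 23.7-fold higher in MK2/3-/- BMDM.

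Under LPS, 7 of the 13 targets were lower and 0 were higher in MK2/3-/- than in wt BMDM, with a median of -1.48 against -0.02 for all genes, of which 14% were lower. Csf3 was lower by -2.95 ± 0.74 (SE; limma adjusted p 0.008). The others, named after their values were seen, were Hp, Tnfaip6, Arg1, Lcn2, Orm1 and Ptges, with differences from -3.28 for Hp, which encodes the acute-phase protein haptoglobin, to -0.78 for Ptges. Orm1 was not above background in LPS-treated MK2/3-/- BMDM, so that it was at least 2.7-fold lower. In wt it was above background on 2 of 3 LPS arrays, with a mean of 4.47. Arg1 was above background on only 1 MK2/3-/- LPS array, where the group mean was 3.26. Both genes thus lay near background in this comparison in MK2/3-/- BMDM. With the methods' t-test and a Benjamini-Hochberg adjustment, which the methods do not name (the adjusted t-test below), the count was 0. Without wt LPS replicate 1 it was 3 of 13. It was also 3 when only the compared groups were fitted. With probes above background on all arrays it was again 3, since Csf3, Orm1, Arg1 and Tnfaip6 are then not tested.

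Between MK2/3-/- and MK2-/- BMDM under LPS, 3 of 13 targets were lower, namely Csf3 by -2.43, Hp by -1.65 and Ptges by -1.25, also named after their values were seen, against 5.84% of all genes called lower. This count was 1 without MK2-/- LPS replicate 1 or 2 and when only the compared groups were fitted. It was 0 with the adjusted t-test and at most 4 otherwise. Between MK2-/- and wt 1 was lower, Tnfaip6 by -3.34 (limma adjusted p 0.0195), against 7.1% of all genes, and 0 were lower without the 2 arrays of low Y-linked signal. This count was also 0 without wt LPS replicate 1 or 2, 2 without wt LPS replicate 3 or MK2-/- medium replicate 1, and was kept under 7 of 13 alternatives, with a range of 0 to 2. The response to LPS of 0 of the 13 targets differed between genotypes by the interaction test in limma.

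**Figure D4:**
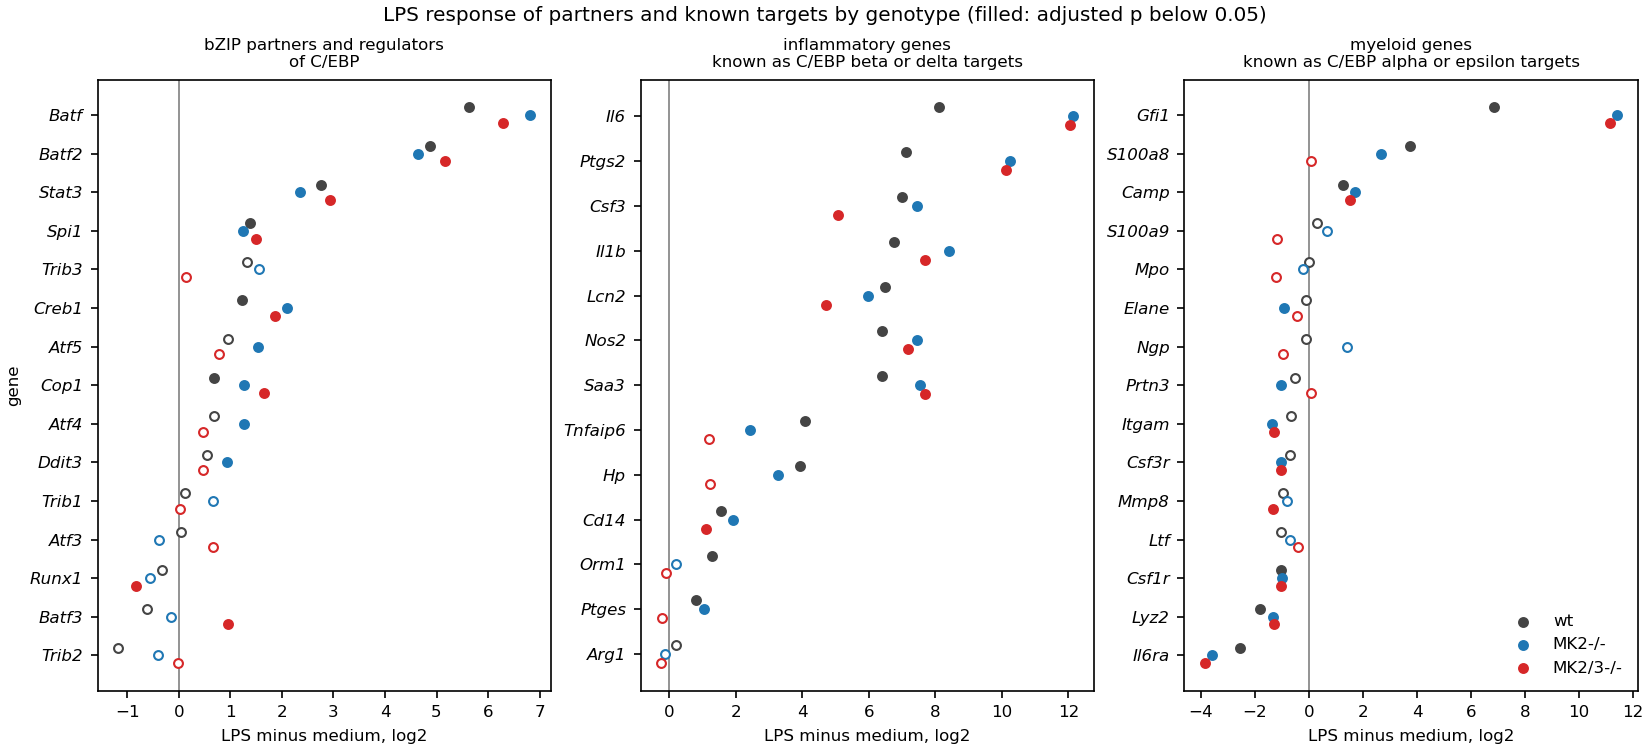
Log2 difference between LPS and medium of the tested genes of the 3 lists in wt, MK2-/- and MK2/3-/- BMDM; filled points have an adjusted p below 0.05, and fitted values are drawn also for genes at background in a group. Il6, Ptgs2 and Il1b rose in all 3 genotypes, whereas Hp and Tnfaip6 rose in wt and MK2-/- BMDM and did not pass in MK2/3-/- BMDM.

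Of 15 myeloid genes known as C/EBPα or C/EBPε targets, 3 rose and 3 fell in wt BMDM, with a median of -0.51. Il6ra, the interleukin-6 receptor, fell by 2.56 and Lyz2, a lysozyme, by 1.80, while Gfi1, a transcriptional repressor, rose by 6.84 and S100a8, a calcium-binding protein of myeloid cells, by 3.72. Without wt medium replicate 4, where Gfi1 was at 9.35 against 2.63 to 5.68 on the other wt medium arrays, its response was 8.15, and those of S100a8, Il6ra and Lyz2 were 3.85, -2.57 and -1.93. Of all genes, 18.6% were higher and 23.5% lower in wt. In MK2-/- BMDM 3 rose and 7 fell, against 17.6% of all genes higher and 27.2% lower. In MK2/3-/- BMDM 2 rose and 6 fell, against 20.3% higher and 28% lower. With 75th percentile scaling 3 and 1 fell in MK2-/- and MK2/3-/- BMDM, and without MK2/3-/- medium replicate 1 the number risen in MK2/3-/- BMDM was 1. Il6ra fell by 3.58 and 3.85 in the knockouts. One gene counted as lower in MK2-/- BMDM, Prtn3, was not above background in medium or under LPS. Gfi1 was not above background in medium in either knockout, and was at least 1610-fold and at least 2000-fold higher under LPS. Under LPS S100a8 was lower in MK2/3-/- than in wt BMDM by -3.11 (limma adjusted p 0.0094) and Il6ra by -1.70 (0.00143), the 2 of 15 genes of the list called in that comparison, against 14% of all genes called lower.

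The named genes whose levels ran most like each member were sought by Pearson's r over the 22 arrays, which share treatment and slide. For Cebpa these were Map3k9 (r = 0.990), Arrb1 (0.990) and Itgb5 (0.988), and for Cebpb Fosl2 (0.970), Bcl3 (0.959) and Nfil3 (0.953). For Cebpd they were Susd6 (0.951), Sbno2 (0.929) and Calcrl (0.911), and for Cebpe Ninl, Erh and Anapc5 (0.912 to 0.883). Cebpg had the weakest matches, Sult2a8, Mga and Hpgds (0.825 to 0.787), and Cebpz was most like Tdrd3, C87436 and Cherp (0.961 to 0.958). For deviations from the group means r was lower for every one of these genes, from 0.435 for Calcrl to 0.858 for Ninl. For Map3k9, Arrb1 and Itgb5 with Cebpa it was 0.703, 0.440 and 0.709.

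Among the 15 pairs of members, Cebpb and Cebpd had the highest r over the 22 arrays, 0.909. For deviations from the group means their r was 0.475, below that of Cebpd with Cebpg (0.586) and of Cebpb with Cebpz (0.487). Cebpa ran opposite to Cebpb, with r of -0.863 over the arrays and -0.491 within groups.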

How the data were processed

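The C/EBP genes and gene lists were chosen with earlier results of these data known. Per the file headers, the deposited scanner output holds spot intensity values after the background and trend correction of Feature Extraction 11.0.1.1, with no scaling between arrays. A second deposited file holds log2 values that the authors quantile normalised and centred by probe on the median over samples, per their methods, and these followed the values computed here with r between 0.993 and 0.999. Gene names came from RefSeq (GRCm38.p6). Probe positions, which the design gives on mm9, are not used here.

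Control spots were left out and outlier spots set to missing (115 to 261 on 21 arrays, 2927 on MK2-/- LPS replicate 3). No spot was saturated. The log2 processed signal was quantile normalised over 22 arrays. Probes had to carry an NCBI accession and reach the scanner's well-above-background mark on 3 arrays or more, and the brightest probe represented a gene. A mean for each of 6 groups was fitted with limma 3.58.1 (R 4.3.3, with data.table in version 1.17.8 and statmod 1.5.0), and genes were called at a two-sided Benjamini-Hochberg adjusted p below 0.05 over 22347 genes. The fit was tested on simulated data. Samples of a group came from separate experiments per the methods. The smallest median absolute log2 difference between replicates was 0.246, so no array was a copy of another in its group. This check cannot tell separate animals from repeats of the same sample. The number of arrays limits the precision. Intervals are 95% intervals of the limma fit.

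Named were all members, up to 4 called genes of each list with the largest LPS response in wt, any list gene called in an interaction, the 3 genes most like each member, and Mapkapk2 and Mapkapk3. Where 0 arrays of a group had a gene above background, a bound was given against, per array, the higher of its own value and the lowest signal well above background. Alternatives were 75th percentile scaling, normexp background correction with an offset of 50, the deposited table, other probe filters and probe choices, array weights, fits of the compared groups alone, replicate blocks, the methods' t-test and leaving out each array. The t-test p-values were adjusted by Benjamini-Hochberg over all genes, a step that the methods do not name. Leaving out both arrays of low Y-linked signal was added after seeing the data.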

Additional observations from a re-analysis of the deposited data

Results flagged for a closer look

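In medium-treated MK2-/- BMDM, replicate 1 stood apart from the other 3 arrays for 2 members, with Cebpa lowest at 12.49 and Cebpg highest at 10.59. These were the 2 of 24 member groups of 4 arrays that exceeded Dixon's 95% critical value for a gap over the range, and chance alone exceeds it in about 1 in 20 groups. The LPS response of Cebpd differed between MK2/3-/- and wt BMDM, with an interaction of -2.59 on the log2 scale, and that of Cop1 differed between the same genotypes by 0.97.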

How the results depend on the processing

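The LPS response of Cebpb in MK2/3-/- BMDM (0.62) passed with 75th percentile scaling (1.5), array weights (0.75), the deposited table (0.74), and, at 0.62, with normexp, with probes above background on all arrays and without both arrays of low Y-linked signal. That of Cebpd (0.28) passed with 75th percentile scaling, at 1.08. The fall of Cebpe in MK2-/- BMDM was lost with 75th percentile scaling (-0.61) and without both arrays of low Y-linked signal (-0.74). At -0.82 it was also lost with the adjusted t-test, with no filter on dim probes and when only the compared groups were fitted. In wt (-0.94) it was lost with the adjusted t-test. Before adjustment, 5 members were below a p of 0.05 in wt by that t-test. The difference of Cebpb between MK2-/- and wt under LPS, -0.07, turned to 0.03 with array weights and to 0.08 without both arrays of low Y-linked signal or without MK2-/- LPS replicate 3, and lay between -0.15 and 0.08 when each array was left out. The cause was not tested.

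The count of members called in the LPS response of MK2/3-/- BMDM was 5 with 75th percentile scaling. Under that scaling the median of all genes was 0.3, 0.28 and 0.29 in the LPS comparisons of wt, MK2-/- and MK2/3-/- BMDM. With quantile normalisation it was -0.04, -0.01 and 0.02. In the interaction between MK2/3-/- and wt the count was 0 with 75th percentile scaling and with only the compared groups fitted, and 2 with array weights, normexp, probes above background on all arrays and without the low Y-linked arrays. Between MK2/3-/- and MK2-/- it was 1 with array weights. Under LPS it was 1 between MK2-/- and wt with 75th percentile scaling or array weights. Between MK2/3-/- and either other genotype it was 0 with the adjusted t-test, and 2 at an unadjusted t-test p below 0.05.

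Leaving out each array in turn moved the response of Cebpb in MK2/3-/- between 0.43 and 0.78, of Cebpe between -1.07 and -0.57 in MK2-/- and -1.06 and -0.7 in wt, of Cebpg in MK2/3-/- between -0.92 and -0.74, and of Cebpz in wt between -1.41 and -1.27. The counts ranged from 3 to 5 in wt, 4 to 5 in MK2-/-, 2 to 4 in MK2/3-/- BMDM and 0 to 2 in the interaction of MK2/3-/- with wt.

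The deviations of LPS and medium arrays with the same number correlated above 0.1 in 7 of 10 pairs (r from -0.085 to 0.364), as did 7 of 10 pairs with the same array-name letter and 5 of 30 with other letters. These correlations do not settle whether the numbers or letters pair the samples. By the labelled ages, each of the 10 pairs with the same letter came from mice of equal age. The same number joined different ages for wt replicate 3 (LPS 12 weeks, medium 13 weeks) and MK2/3-/- replicate 3 (LPS 14 weeks, medium 12 weeks). The ages thus go with the letters in these cases. Whether arrays of equal age shared an animal was not tested, and the main fit assumed no pairing. With the replicate number as a block Cebpb in MK2/3-/- BMDM was 0.61, and with the array-name letter as a block 0.65, both past the threshold, and the interaction count between MK2/3-/- and wt was 2 in both. Over members and the settings other than leaving out an array, 388 values kept direction and call, 15 lost and 18 gained a call and 2 were reversed. When arrays were left out, 692 kept both, 24 lost and 9 gained a call and 1 was reversed. The number of arrays, 3 or 4 a group, limits what could be resolved.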
